A study of Mus musculus with 8 samples.

Results

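Transcription factors outside the Hox clusters, 9 in number, were followed through the mouse cecum and colon epithelium: Cdx1, Cdx2, Gata4, Gata6, Hnf4a, Hnf4g, Osr2, Onecut2 and Prdm1. They were taken by gene symbol, and all 9 were found among the 33696 genes of the count tables, each as 1 Ensembl gene (Cdx1 ENSMUSG00000024619, Cdx2 ENSMUSG00000029646, Gata4 ENSMUSG00000021944, Gata6 ENSMUSG00000005836, Hnf4a ENSMUSG00000017950, Hnf4g ENSMUSG00000017688, Osr2 ENSMUSG00000022330, Onecut2 ENSMUSG00000045991 and Prdm1 ENSMUSG00000038151). Single-cell RNA was read by split-pool barcoding (Parse Evercode) in 8 sublibraries that each held cells of every condition. The epithelium had been stripped with EDTA, dissociated and sorted as EPCAM-positive, CD45-negative cells, with the CD44-positive and CD44-negative fractions mixed in equal parts, so the proportion of proliferative to differentiated cells was set by the sort. The groups compared were the cecum of Ctrl, Abx_4D, Abx_14D and GF mice and the colon of Abx_14D and GF mice, each with 4 numbered loaded samples. Ctrl, Abx and GF are read here as control, antibiotic-treated and germ-free. The labels do not spell out 4D and 14D, and they give no strain, age or sex. Colon Ctrl gave 50 cells and colon Abx_4D gave 857 of its 1026 cells in 1 sample, so neither entered a comparison, and no colon result has an untreated control.

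Most of these factors are textbook regulators of regional identity and maturation in the gut epithelium. CDX1 and CDX2 are caudal homeobox factors that hold the intestinal against the gastric programme; GATA4 marks the proximal small intestine, where it keeps ileal genes low, and GATA6 is the GATA factor that reaches into distal bowel and its crypts. HNF4A and HNF4G are paired nuclear receptors that drive brush border and lipid genes in maturing enterocytes. PRDM1 (Blimp1) is a zinc-finger repressor known for timing the change from suckling to adult enterocytes, OSR2 is an odd-skipped zinc-finger factor best known from palate and limb, and ONECUT2 is a cut-homeodomain factor of liver, pancreas and proximal gut.

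Promoter windows, from 250 bases before to 50 bases after an annotated start, were taken from the RefSeq table (build GRCm38.p6). Member windows on 1 chromosome, if any, were left out by the search, so the table may hold more members than are shown. What remained was 4 windows of 3 of the 9 members. They are shown because Hnf4a has more than 1 start, which counts per gene cannot separate. Of these 3 members, Hnf4a and Cdx2 had windows with a match to another intestinal factor's core motif. The capitals mark the match. The first Hnf4a window lies at chr2:163506607-163506906 on the plus strand and holds 1 match to the GATA core. The second, at chr2:163546905-163547204 on the plus strand, holds 2 adjacent matches to the HNF1 core on its minus strand. The Cdx2 window, at chr5:147307200-147307499 on the minus strand, holds 1 match to the HNF1 core.
Hnf4a upstream start: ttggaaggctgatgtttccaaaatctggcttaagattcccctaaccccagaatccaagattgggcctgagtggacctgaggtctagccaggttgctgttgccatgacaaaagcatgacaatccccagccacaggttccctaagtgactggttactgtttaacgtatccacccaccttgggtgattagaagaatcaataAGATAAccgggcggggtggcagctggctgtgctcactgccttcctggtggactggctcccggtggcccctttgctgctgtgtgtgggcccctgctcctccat
Hnf4a downstream start: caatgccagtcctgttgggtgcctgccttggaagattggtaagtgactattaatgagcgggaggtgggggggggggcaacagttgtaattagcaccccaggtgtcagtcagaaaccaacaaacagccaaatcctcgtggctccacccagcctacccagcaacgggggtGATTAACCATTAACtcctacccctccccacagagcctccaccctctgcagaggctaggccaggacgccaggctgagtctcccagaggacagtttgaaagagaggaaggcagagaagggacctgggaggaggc
Cdx2: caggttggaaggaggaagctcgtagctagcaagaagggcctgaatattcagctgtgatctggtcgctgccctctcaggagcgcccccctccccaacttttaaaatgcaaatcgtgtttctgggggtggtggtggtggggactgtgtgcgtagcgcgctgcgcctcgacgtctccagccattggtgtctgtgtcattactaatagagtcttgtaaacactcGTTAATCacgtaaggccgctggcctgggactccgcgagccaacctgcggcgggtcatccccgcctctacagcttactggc
Both strands were searched for the GATA core AGATAA, the CDX core TTTATG, the HNF4 core CAAAGTC and the HNF1 core GTTAATN. Of 32851 windows of the same length, 11.2%, 11.9%, 4.44% and 7.08% held them in that order, so such matches are common. The Prdm1 window held none of the 4. A match describes the letters of the window and is no measure of binding.

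The data covered 14840 cells with at least 500 transcripts in 24 loaded samples, with a median of 14247.5 transcripts per cell. A sample held between 191 and 1886 cells and between 1821737 and 30127065 transcripts. No cell barcode was shared between loaded samples. Cells were put in classes by marker genes: mature absorptive (1488 in the cecum and 289 in the colon), dividing (1586 and 1054), Lgr5-positive stem that were not dividing (1267 and 3138), goblet (448 and 688), tuft (42 and 189) and enteroendocrine (21 and 41), with 1881 and 2658 in no class. The classes are ranges of a score, and 241 of 1777 absorptive cells and 1197 of 4405 stem cells lay within 0.1 of the threshold. Epithelial markers were present throughout, and immune, stromal and Paneth scores had a median of 0 in the absorptive, dividing, stem and goblet classes of both tissues. Colonic absorptive cells were less strongly absorptive by the marker score than cecal ones, with a median of 1.76 against 2.42. Labels do not say that numbered samples came from separate animals, so every p-value here reflects only how much these samples vary among themselves, a variation that may be technical.

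Values are CPM, a gene's summed count in a sample's cells of a class scaled to a common total, compared between conditions over samples, with differences as log2 fold changes ± SE and p-values adjusted over all genes tested. Gene levels are not compared with each other, since CPM is not per length. Across the series Hnf4g gave 140960 transcripts in 12675 cells, Hnf4a 127625 in 13467, Cdx1 46518 in 11187, Cdx2 36145 in 9564, Gata6 35054 in 9864 and Osr2 7024 in 2830. Prdm1 gave 904 transcripts in 487 cells, Gata4 346 in 83 and Onecut2 289 in 95. 6 members passed the low-count filter in all of the absorptive, dividing, stem and goblet fits, Prdm1 passed it only in the fits of cecal absorptive cells and of all cells and in the 2 fits of differences between class steps, and Gata4 and Onecut2 passed it in none.

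**Figure D1:**
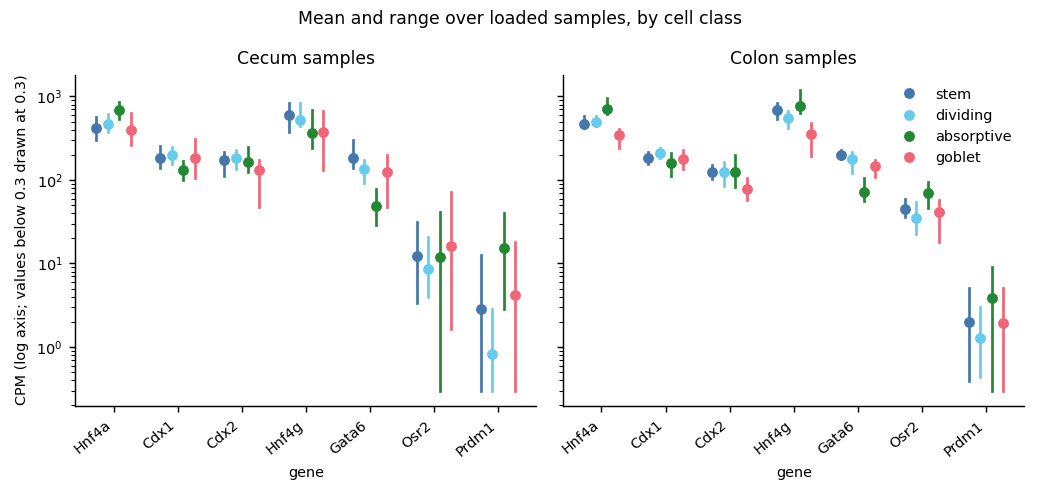
Level of 7 members in the cecum (left, 16 samples) and colon (right, 8 samples) by cell class, in CPM on a log axis; points are means over samples, lines run from the lowest to the highest sample, and values below 0.3 are drawn at 0.3. Gata6 is lowest in absorptive cells in both tissues, Osr2 sits higher in every colon class, and the highest Prdm1 mean is that of cecal absorptive cells.

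Hnf4a was highest in absorptive cells in both tissues. In the cecum it averaged 697 ± 80.5 CPM (SD, n = 16 samples) in absorptive cells, 470 ± 67.4 in dividing cells, 419 ± 69.7 in stem cells and 398 ± 107 in goblet cells. In the colon the corresponding means were 710 ± 112, 499 ± 48.7, 471 ± 54.5 and 350 ± 48.5 (n = 8). The step from dividing to absorptive cells of the same samples was 0.56 ± 0.05 in the cecum (adjusted p = 5.2e-10) and 0.50 ± 0.07 in the colon (adjusted p = 8.6e-06). This contrast touches nearly every gene: 85% of genes tested in the cecum and 72.1% in the colon were called, and the median gene was at -0.55 and -0.29. In each tissue 5 of 6 members tested were called. Relative to that median, Hnf4a stood 1.12 and 0.80 higher, and TMM scaling, which centres the median at -0.04 and -0.03, gave 1.08 and 0.76. Under TMM the split of calls in the cecum changed from 2399 higher and 6297 lower to 4111 higher and 4384 lower.

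Gata6 ran the opposite way. It averaged 183 ± 39.1 CPM in cecal stem cells, 137 ± 22.6 in dividing cells and 49.4 ± 12.9 in absorptive cells, and in the colon 200 ± 14.8, 176 ± 26.4 and 71.5 ± 16.2. No absorptive value in either tissue reached the lowest stem value. From dividing to absorptive cells it fell by 1.44 ± 0.08 in the cecum (adjusted p = 5e-14) and by 1.33 ± 0.12 in the colon (adjusted p = 1.1e-08), and it remained lower under TMM at -0.93 and -1.07. Goblet cells lay between, at 125 ± 43.1 and 147 ± 22.1 CPM.

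The calls on the CDX genes along this axis turned on the scaling. Cdx1 was -0.60 ± 0.06 in cecal and -0.38 ± 0.10 in colonic absorptive against dividing cells, which is -0.05 and -0.09 relative to the median gene; under TMM neither was called (-0.09, adjusted p = 0.18, and -0.12, adjusted p = 0.25). Cdx2 in the cecum was -0.18 ± 0.07 (adjusted p = 0.027) by library size but 0.33 under TMM (adjusted p = 0.00024), so its direction turns on the scaling, and in the colon it was -0.02 (adjusted p = 0.89). Goblet cells held the lowest mean Cdx2 of the 4 large classes, 131 ± 32.7 CPM in the cecum and 78.8 ± 17.2 in the colon.

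Hnf4g followed a different course in each tissue. In the cecum it was highest in stem cells, at 605 ± 133 CPM, and lower in absorptive cells, at 368 ± 146, a step of -0.60 ± 0.09 from dividing cells that is -0.05 relative to the median gene and was not called under TMM (-0.09, adjusted p = 0.38). In the colon absorptive cells held the most, 780 ± 195 CPM against 556 ± 100 in dividing and 680 ± 113 in stem cells, and the step from dividing cells was 0.48 ± 0.09 (adjusted p = 8.9e-05; 0.74 under TMM). The difference between the tissues was fitted on the 16 samples of Abx_14D and GF alone, so it is not the difference of the printed steps, and came to 1.01 ± 0.12 (adjusted p = 1.3e-06). It was called under each of 32 alternatives, which spanned 0.79 to 1.08. Of 7 members tested for such a difference, 2 were called, against 19.6% of all genes. The other was Prdm1, which passed the low-count filter only through cecal absorptive cells, where it is high, so nothing is read from its call. For Hnf4a, the paralog of Hnf4g, the tissue difference in the step was -0.06 ± 0.10 (adjusted p = 0.70), but DESeq2 called it (-0.28, adjusted p = 0.043). The median gene of the edgeR fit stood at 0.2, which is not taken off the printed values.

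Osr2 rose from dividing to absorptive cells in the colon, from a mean of 35.1 ± 10.6 to 70.0 ± 18.4 CPM, a step of 1.01 ± 0.18 (adjusted p = 7.8e-05; 1.28 under TMM). Its cecal step, from 8.68 ± 4.42 to 11.9 ± 9.32 CPM, was 0.48 (adjusted p = 0.12), though TMM called it (0.99, adjusted p = 0.0027), and the difference between the tissues' steps was 0.52 (adjusted p = 0.35). Prdm1 averaged 15.4 ± 12.3 CPM in cecal absorptive cells and 0.826 ± 0.826 in cecal dividing cells, and 3.81 ± 2.93 and 1.29 ± 0.806 in the colon. Thinned to 5000 transcripts per cell, 8.48% of cecal absorptive cells had a Prdm1 transcript against 0.278% of cecal dividing cells, with 262 and 149 shallower cells left out; unthinned, the shares were 15.5% and 1.32%, at median depths of 12814.5 and 18340 transcripts.

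Between colon and cecum, Osr2 had the largest differences of the members tested. It was higher in the colon in each of the 4 classes, and passed the test in all but goblet cells of Abx_14D mice. In absorptive cells it stood at 10.7, 10, 13.5 and 13.0 CPM in cecum Abx_14D samples 1 to 4 and at 95.3, 46.6, 68.1 and 57.0 in colon Abx_14D. In GF mice the cecal values were 6.93, 0, 16.4 and 17.6 CPM and the colonic ones 72.1, 86.4, 86.2 and 48.1. Every colon sample lay above every cecum sample of these conditions, and the lowest colonic value exceeded the highest of all 16 cecal samples, 41.9 CPM in Abx_4D sample 1. The difference was 2.45 ± 0.38 in Abx_14D (5.47-fold, adjusted p = 4.4e-05) and 2.62 ± 0.39 in GF mice (6.16-fold, adjusted p = 3.3e-05).

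Dividing cells showed the Osr2 difference as well. Cecum Abx_14D gave 12.9, 8.21, 13.0 and 6.4 CPM against 36.2, 45.1, 24.4 and 30.3 in the colon, and GF 8.42, 6.68, 5.09 and 5.20 against 54.4, 30.8, 22.8 and 36.9. Again the tissues did not overlap. The differences were 1.74 ± 0.27 (3.34-fold, adjusted p = 9.3e-05) and 2.55 ± 0.31 (5.87-fold, adjusted p = 3.7e-06). In stem cells they were 2.12 ± 0.32 (adjusted p = 3.5e-05) and 1.77 ± 0.28 (adjusted p = 9.3e-05), with 3.41 to 20.8 CPM in these cecal samples and 36.5 to 58.8 in the colonic ones. Goblet cells gave 3.03 ± 0.47 in GF mice (adjusted p = 0.00019), while in Abx_14D the values of the tissues overlapped and the difference was 1.16 ± 0.45 (adjusted p = 0.10). DESeq2 called that goblet difference in Abx_14D (1.28, adjusted p = 0.038), as did edgeR with no low-count filter (1.16, adjusted p = 0.01). Each of the 7 called Osr2 differences was called under all 32 alternatives run on it.

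The share of cells with an Osr2 transcript differed in the same direction at equal depth. After thinning to 5000 transcripts per cell, 26.9% of colonic absorptive cells had an Osr2 transcript against 4.24% in the cecum, and 14.5% of dividing cells against 3.90% (unthinned 40.1% and 11.7%, and 29.1% and 12.8%). The median depths of the absorptive cells were 15275 and 12814.5 transcripts. For comparison, Gata4 in cecal absorptive cells had a share of 0% after thinning and 0.336% before it. The small classes had no test, but their summed counts read the same way for enteroendocrine cells: 52.8 CPM in the colon (95% exact Poisson interval 38.8 to 70.2) and 12.2 in the cecum (4.48 to 26.6). In tuft cells the intervals overlapped, at 36.5 (28.1 to 46.5) and 25.8 (14.4 to 42.5). These intervals cover counting error only. The shares and sums given here pool all cecal groups, Ctrl and Abx_4D included, against Abx_14D and GF in the colon.

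**Figure D2:**
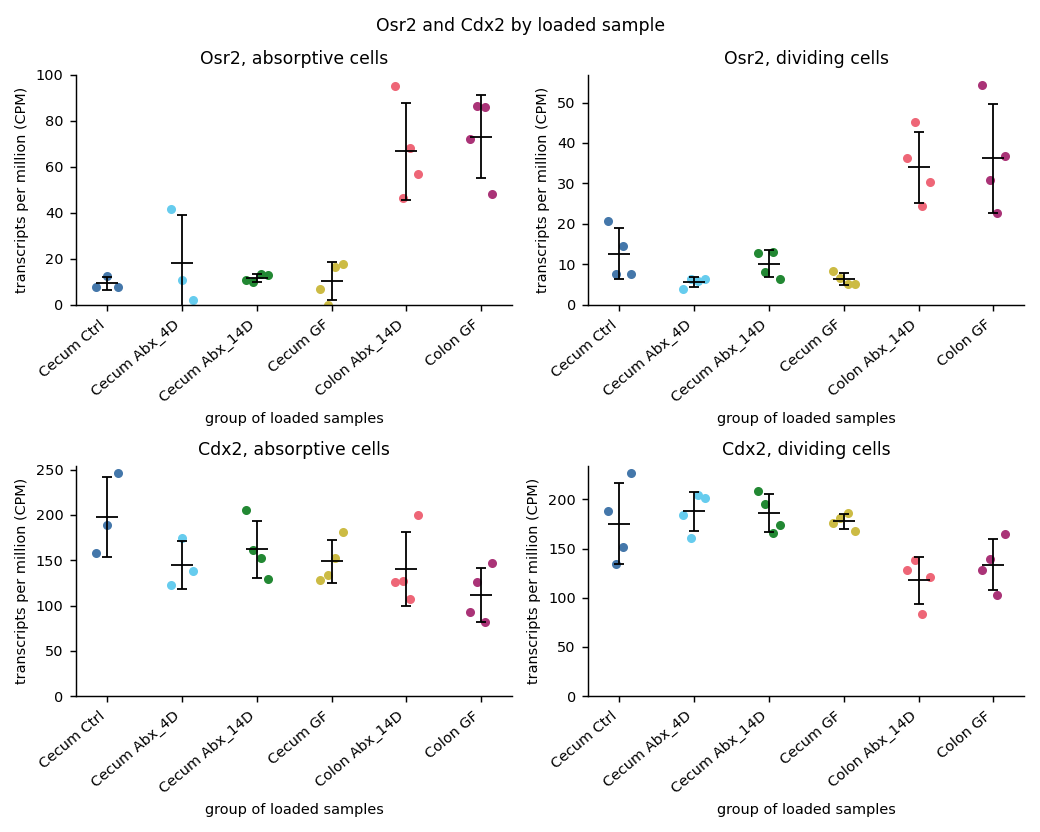
Osr2 (top) and Cdx2 (bottom) in absorptive (left) and dividing cells (right), in CPM by group; each point is 1 loaded sample with at least 20 cells, the long black tick is the mean and the bar is ± 1 SD. The Osr2 points of the colon lie above those of the cecum in both classes, and the Cdx2 points of colonic dividing cells, from 83.7 to 165, lie mostly below those of the cecum, from 134 to 227.

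Cdx2 went the other way and was lower in the colon in dividing and goblet cells. Dividing cells gave 209, 195, 166 and 174 CPM in cecum Abx_14D and 128, 138, 83.7 and 121 in colon Abx_14D, with no overlap. The difference was -0.65 ± 0.15 (1.57-fold lower, adjusted p = 0.0036). In GF mice the values were 176, 181, 186 and 168 in the cecum and 128, 139, 103 and 165 in the colon, again without overlap. That difference, -0.41 ± 0.15, missed the threshold (adjusted p = 0.08) and was called when the sample number was fitted as a replicate block (-0.43, adjusted p = 0.038). Same-numbered GF samples of cecum and colon correlated in their deviations at 0.12 to 0.49, and those of unlike number at -0.51 to 0.35. The labels state no such pairing.

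Goblet cells showed the larger Cdx2 difference. They held 150, 145, 126 and 174 CPM in cecum Abx_14D and 58.3, 58.4, 81.4 and 106 in colon Abx_14D, a difference of -0.99 ± 0.20 (1.99-fold lower, adjusted p = 0.0028). GF mice had 107, 162, 143 and 156 CPM in the cecum and 77.7, 76.8, 72.0 and 100 in the colon (-0.81 ± 0.19, adjusted p = 0.0068). The tissues did not overlap in either condition, and the first call was lost when at least 40 cells per sample were required (-0.76, adjusted p = 0.17). Cecum Abx_14D then keeps 1 goblet sample of 4 (30, 23, 50 and 28 cells), which is assumed to vary like the others, so no instability is read from that loss. Stem cells gave -0.43 (adjusted p = 0.059) and -0.47 (adjusted p = 0.053), both called with the replicate block (adjusted p = 0.012 and 0.0059). Absorptive cells gave -0.17 ± 0.21 (adjusted p = 0.62, 95% interval -0.58 to 0.24) and -0.45 (adjusted p = 0.19), with overlapping values. Summed counts of the small classes pointed the same way, with 62.9 CPM in colonic enteroendocrine cells (47.5 to 81.7) against 148 (116 to 187) in the cecum. Tuft cells gave 65.1 (53.8 to 78.1) in the colon against 97.9 (74.1 to 127) in the cecum, with overlapping intervals. The cecal sums pool all cecal groups, Ctrl and Abx_4D included, while the colonic ones hold Abx_14D and GF.

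Cdx1 did not follow Cdx2. In dividing cells it ranged from 157 to 246 CPM over the cecal samples and from 182 to 240 over the colonic ones, and the differences were 0.07 (95% interval -0.17 to 0.31) in Abx_14D and 0.20 (-0.04 to 0.44) in GF mice. Absorptive cells of Abx_14D were the exception, with 111, 111, 99.1 and 152 CPM in the cecum and 200, 154, 202 and 208 in the colon, and no overlap. The difference was 0.69 ± 0.18 (1.62-fold, adjusted p = 0.0069), or 0.53 relative to the median gene, and it was lost with stricter gates (0.96, adjusted p = 0.17) and with at least 40 cells (0.73, adjusted p = 0.17). At 40 cells colon Abx_14D keeps 1 absorptive sample of 4 (42, 37, 33 and 31 cells), again assumed to vary like the others, and nothing is read from that loss. In GF mice it was 0.17 ± 0.19 (adjusted p = 0.65). The difference between those conditions, -0.53, was not called (adjusted p = 0.72).

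Hnf4g was higher in colonic absorptive cells, and the step from dividing cells given above differed between the tissues. The position of the median gene between the tissues in absorptive cells turned on the scaling. It stood at 0.16 in Abx_14D and 0.10 in GF mice by library size, and at 0.03 and -0.01 under TMM. Of all genes called there, 1121 were higher and 512 lower in Abx_14D (889 and 817 under TMM), and 927 and 323 in GF mice (770 and 530 under TMM). Cecum Abx_14D gave 276, 396, 262 and 321 CPM and colon Abx_14D 858, 636, 727 and 656, without overlap. The difference was 1.2 ± 0.20 (2.30-fold, adjusted p = 0.00011; 1.04 relative to the median gene) and was called under all 32 alternatives, at 1.56 with stricter gates. In GF mice the cecal samples were higher, at 436, 405, 438 and 627 CPM, and the colonic ones gave 649, 662, 1210 and 840, just clear of them. That difference of 0.81 ± 0.20 (1.75-fold, 0.71 relative to the median gene, adjusted p = 0.0064) was lost with stricter gates (0.37, adjusted p = 0.47), with at least 40 cells (0.42, adjusted p = 0.29), without sublibrary 7 (0.37, adjusted p = 0.35) and without colon GF sample 3 (0.58, adjusted p = 0.051). At 40 cells colon GF keeps 2 absorptive samples (53, 45, 26 and 22 cells). In dividing cells the differences were 0.19 (adjusted p = 0.47) and -0.18 (adjusted p = 0.59), in stem cells -0.02 and -0.01, and in goblet cells -0.03 and -0.72 (adjusted p = 0.97 and 0.052). The GF goblet difference, lower in the colon and so opposite to the absorptive one, was called with the replicate block (-0.72, adjusted p = 0.045) and by DESeq2 (-0.67, adjusted p = 0.036). The lower absorptive score of the colonic cells, 1.81 in Abx_14D and 1.70 in GF against 2.60 and 2.25 in the cecum, moved with the absorptive result, and its part in it was not tested.

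Gata6 was modestly higher in the colon. Over all cells of a sample it averaged 163 ± 12.9 CPM in the colon and 117 ± 24.0 in the cecum, with differences of 0.57 ± 0.13 (adjusted p = 0.0022) and 0.52 ± 0.13 (adjusted p = 0.0062). All cells mix the classes in different proportions, and absorptive cells, low in Gata6, numbered 1488 in the cecum and 289 in the colon. Within stem cells the difference was 0.32 ± 0.11 in Abx_14D (155, 162, 150 and 157 CPM against 203, 184, 192 and 201; adjusted p = 0.04), called under 17 of 32 alternatives, and 0.31 ± 0.10 in GF (adjusted p = 0.058). The GF stem difference was called with TMM (0.34, adjusted p = 0.028) and DESeq2 (0.34, adjusted p = 0.0087). Absorptive cells gave 0.64 ± 0.20 in Abx_14D (44.0, 51.0, 43.6 and 53.1 CPM against 65.2, 55.5, 105 and 76.9; adjusted p = 0.027), lost under 14 of 32 alternatives, among them TMM (0.51, adjusted p = 0.061), DESeq2 (0.49, adjusted p = 0.079) and stricter gates (0.19, adjusted p = 0.89). In GF mice it was 0.23 (adjusted p = 0.56). Dividing cells gave 0.38 in both conditions (adjusted p = 0.11 and 0.15). Of these DESeq2 called the one in Abx_14D (0.44, adjusted p = 0.04), and TMM called neither.

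Hnf4a did not differ detectably by tissue in any class. Its absorptive difference was -0.12 (95% interval -0.41 to 0.17) in Abx_14D and 0.17 (-0.12 to 0.46) in GF mice, and its dividing difference 0.09 (-0.15 to 0.33) and 0.07 (-0.17 to 0.31). The intervals in dividing cells exclude a change of 1.5-fold in either direction. Prdm1 was lower in the colon over all cells in Abx_14D, at 3.75, 2.73, 13.6 and 4.66 CPM in the cecum and 1.43, 2.65, 1.36 and 2.50 in the colon (-1.69 ± 0.45, adjusted p = 0.0076), and the call was lost without cecum Abx_14D sample 3 (-0.91, adjusted p = 0.075) or the samples over 0.5% mitochondrial transcripts (-0.72, adjusted p = 0.27). All cells here include those set apart by the immune markers, whose part was not tested. In absorptive cells Prdm1 passed no filter for this comparison. Colonic values ran from 0 to 8.96 CPM and the cecal values of the same conditions from 4.60 to 35.2.

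Counting members, 4 of 6 tested were called in absorptive cells in Abx_14D against 18.5% of all genes, and 2 of 6 in GF mice against 14.2%. In dividing cells the counts were 2 of 6 (17.2% of all genes) and 1 of 6 (9.89%), in stem cells 2 of 6 (17.5%) and 1 of 6 (11.1%), and in goblet cells 1 of 6 (11.7%) and 2 of 6 (13.9%). Over all cells 5 of 7 were called in Abx_14D and 3 of 7 in GF mice, against 35% and 23.6%. By edgeR no member's tissue difference changed between GF and Abx_14D in absorptive or dividing cells, with 0 of 6 also at an unadjusted p under 0.05 and with DESeq2; 0.0227% and 0% of all genes were called there. In goblet cells edgeR called 0 of 6 members and 0 of 10249 genes for that change, with Osr2 at an unadjusted p under 0.05. With no low-count filter edgeR called Osr2 there (1.87, adjusted p = 0.028), and TMM and DESeq2 did not. The tissue comparisons in GF and Abx_14D use separate samples.

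**Figure D3:**
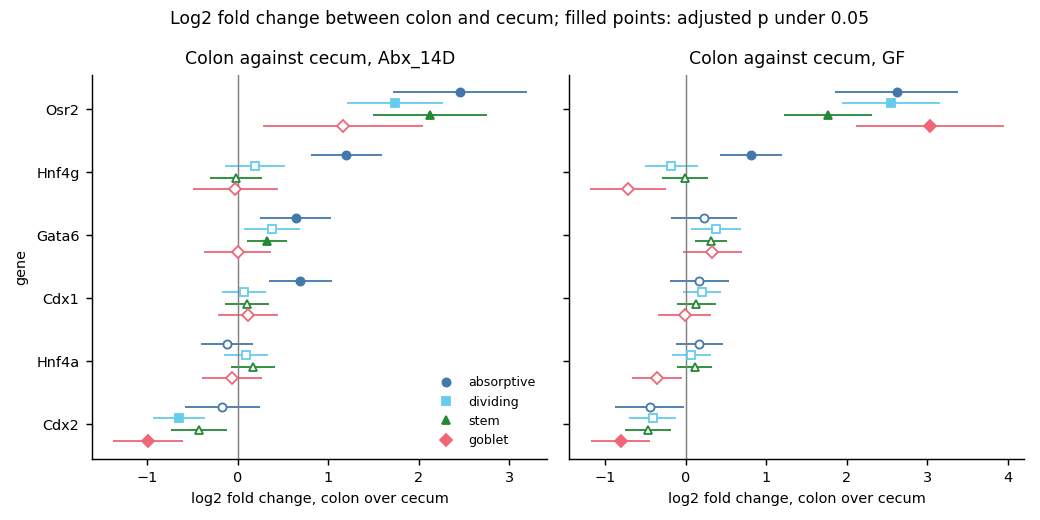
Log2 fold change of colon over cecum for 6 members in Abx_14D (left) and GF mice (right); symbols mark the cell class, lines are 95% intervals, and filled symbols passed an adjusted p of 0.05. Osr2 lies to the right of 0 in every class and Cdx2 to the left, and for Hnf4g the filled symbols are those of absorptive cells.

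Within the cecum, absorptive cells of GF mice held more Hnf4g and less Prdm1 than those of Ctrl mice. Cecum Ctrl samples 2 to 4 held 242, 241 and 264 CPM of Hnf4g (sample 1 had 11 absorptive cells and was left out of the fit) and GF samples 436, 405, 438 and 627. Every GF value exceeded every Ctrl value. The difference was 0.94 ± 0.28 (1.92-fold, adjusted p = 0.03), or 0.82 relative to the median gene. It was kept in 26 of 32 alternatives, and the adjusted p rose to 0.087, 0.12 and 0.096 without Ctrl samples 2, 3 and 4, to 0.11 without GF sample 4 (0.77), to 0.059 without sublibrary 6 (0.81) and to 0.13 without the samples over 0.5% mitochondrial transcripts (0.77).

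Dividing cells held Hnf4g at 483, 514, 495 and 463 CPM in Ctrl and 485, 583, 615 and 832 in GF, overlapping, with a difference of 0.36 ± 0.14 (adjusted p = 0.22). Stem cells gave 0.52 ± 0.17 (adjusted p = 0.094) and goblet cells 0.98 ± 0.30 (adjusted p = 0.12); DESeq2 called both (0.51, adjusted p = 0.05 and under the threshold before rounding, and 1.0, adjusted p = 0.046). Whether the change differed between absorptive and dividing cells was tested directly and was not called (0.57 ± 0.24, adjusted p = 0.23). Antibiotics gave smaller absorptive differences from Ctrl, 0.63 ± 0.30 in Abx_4D (691, 256 and 246 CPM in samples 1, 3 and 4; adjusted p = 0.31) and 0.33 ± 0.28 in Abx_14D (adjusted p = 0.56). The GF value exceeded that of Abx_14D by 0.61 ± 0.25, which was not called (adjusted p = 0.31). These comparisons share the Ctrl samples.

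Prdm1 fell in GF cecal absorptive cells. Ctrl samples 2 to 4 gave 13.0, 19.1 and 40.2 CPM and GF samples 8.66, 5.47, 5.94 and 4.60, all below the lowest Ctrl value. The difference was -2.19 ± 0.53 (4.57-fold lower, adjusted p = 0.0074), kept in 31 of 32 alternatives and lost without Ctrl sample 4 (-1.57, adjusted p = 0.15). Antibiotic samples were spread, at 36.7, 22.6 and 17.7 CPM in Abx_4D and 9.33, 4.63, 35.2 and 10.5 in Abx_14D, with differences from Ctrl of -0.17 (adjusted p = 0.93) and -0.62 (adjusted p = 0.49). GF against Abx_14D was -1.57 ± 0.50 (adjusted p = 0.11), and edgeR called it with no low-count filter (-1.57, adjusted p = 0.00065). Over all cells of a sample the GF difference from Ctrl was -1.93 ± 0.51 (6.61, 3.05, 7.86 and 13.8 CPM against 1.34, 1.98, 2.47 and 2.44; adjusted p = 0.034), kept in 22 of 32 alternatives. PRDM1 is also a factor of lymphocytes. In these absorptive cells 5 of 6 immune markers, Ptprc, Cd3e, Cd79a, Laptm5 and Tyrobp, were at 0 in both groups. The summed immune list ran from 0 to 1.47 CPM in Ctrl and from 0.912 to 1.73 in GF. The gate had already kept cells high in these markers out of the class, so these values cannot decide on an immune source. All cells of a sample include such cells, with the list at 8.27 to 36.0 CPM in Ctrl and 4.03 to 13.6 in GF. The part of these cells in the Prdm1 result over all cells was not tested.

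Markers of small intestinal enterocytes moved with these conditions. The summed list of 5 ran from 32.3 to 36.4 CPM in Ctrl absorptive cells, 86.6 to 568 in Abx_4D, 75.7 to 168 in Abx_14D and 56.9 to 123 in GF, with Sis at 0 in Ctrl, Lct at 0 in the other 3 groups and Fabp6 at 0 in GF. The median absorptive score was 2.41 in Ctrl and 2.25 in GF. The part of either in the Hnf4g and Prdm1 results was not tested.

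**Figure D4:**
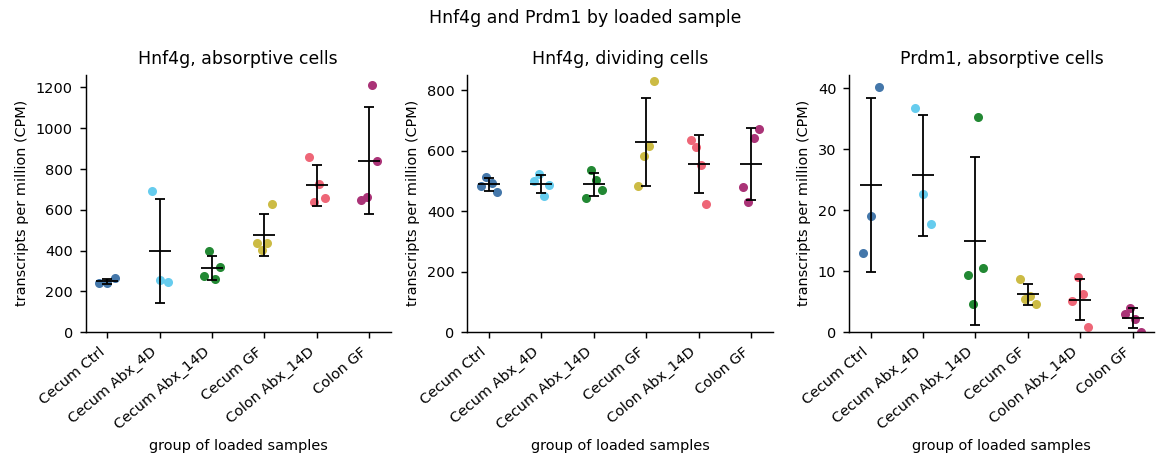
Hnf4g in absorptive (left) and dividing cells (middle) and Prdm1 in absorptive cells (right), in CPM by group; each point is 1 loaded sample with at least 20 cells, the long black tick is the mean and the bar is ± 1 SD. In absorptive cells the 4 GF cecal samples lie above the Ctrl samples for Hnf4g (405 to 627) and below them for Prdm1 (4.60 to 8.66).

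Counts of members called in the cecum were small. GF against Ctrl called 2 of 7 in absorptive cells (11.2% of all genes) and 2 of 7 over all cells (5.17%), the latter with Hnf4g at 0.55 ± 0.15 (adjusted p = 0.046), kept in 15 of 32 alternatives (0.47 to 0.68). In absorptive cells 4 of 7 members had an unadjusted edgeR p under 0.05 (Cdx2, Gata6, Hnf4g and Prdm1). In the other comparisons edgeR called none in absorptive or dividing cells, and neither did DESeq2. For absorptive cells the share of all genes called was 3.16% in Abx_4D against Ctrl, 6.62% in Abx_14D against Ctrl, 2.38% in GF against Abx_14D and 0.0737% in Abx_14D against Abx_4D, and the members at an unadjusted p under 0.05 numbered 1 (Hnf4g), 0, 2 (Hnf4g and Prdm1) and 0 of 7. For dividing cells the shares were 0.56%, 1.85%, 2.72% in GF against Ctrl, 0.0367% and 0.0459%, with 1 (Osr2), 0, 2 (Hnf4g and Osr2), 1 (Hnf4g) and 1 (Osr2) of 6 members at that level. The direct test of absorptive against dividing responses to GF called 0 of 7 members, 2 at an unadjusted p under 0.05 (Cdx2 and Hnf4g), and 3.37% of genes. Colon GF against Abx_14D called 0 of 6 in absorptive cells (1.52% of genes, Cdx1 at an unadjusted p under 0.05) and 0 of 6 in dividing cells (0.623%, none at that level).

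Gata6 in stem cells was the remaining cecal call by edgeR with library-size scaling. It stood at 301, 185, 215 and 225 CPM in Ctrl and 155, 162, 150 and 157 in Abx_14D, without overlap, a difference of -0.57 ± 0.14 (1.48-fold lower, adjusted p = 0.045, with 1.53% of genes called) that was kept in 14 of 32 alternatives. Without Ctrl sample 1 it was -0.42 (adjusted p = 0.20). Abx_4D (175, 160, 183 and 205 CPM) and GF (178, 167, 140 and 176) gave -0.34 (adjusted p = 0.41) and -0.49 (adjusted p = 0.05, above the threshold before rounding). In GF against Ctrl stem cells 3 of 6 members had an unadjusted p under 0.05 (Gata6, Hnf4a and Hnf4g), and Gata6 was called with TMM (-0.50, adjusted p = 0.035) and DESeq2 (-0.50, adjusted p = 0.012). Cdx1, Cdx2, Hnf4a and Osr2 had no called difference between cecal conditions in any of these classes by that test. Cdx2 in absorptive cells had an unadjusted edgeR p under 0.05 in GF against Ctrl. It stood at 158, 189 and 246 CPM in Ctrl samples 2 to 4 and at 128, 134, 152 and 181 in GF, overlapping. For Hnf4a in absorptive cells the 95% interval of GF against Ctrl ran from -0.36 to 0.34, and for Cdx2 in dividing cells from -0.28 to 0.30. The Osr2 intervals were wider, -0.99 to 1.51 in absorptive cells, since most cecal samples had few Osr2 transcripts.

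Gata4 and Onecut2 were close to absent, apart from a few cells of 1 sample. Over all cells Gata4 ran from 0 to 1.19 CPM in the 16 cecal samples and from 0.15 to 9.09 in the 8 colonic ones, and Onecut2 from 0 to 1.81 and from 0 to 6.17. Colon Abx_14D sample 1 alone held 274 of the 346 Gata4 transcripts and 186 of the 289 Onecut2 transcripts. In it, 18 of 1886 cells had at least 2 Gata4 transcripts and carried 264 of them, and 14 of those 18 also had Onecut2. The cells came from all 8 sublibraries and from 4 marker classes as well as cells in no class (5 dividing, 4 stem, 3 goblet, 1 absorptive and 5 in none). Another 11 cells in 4 other colonic samples had at least 2 Gata4 transcripts, and no cecal cell did.

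The 18 cells carried some genes of the small intestine that were rare in the sample's other cells, and lacked others. They were chosen by Gata4 after the data were seen, and are given as a description. Cps1, a urea cycle enzyme of small intestinal epithelium, was present in 14 of 18 cells at 1740 CPM against 48.6 in the other 1868 cells of the sample. Olfm4, a small intestinal stem cell marker, was in 9 of 18 at 717 CPM against 0.236, Mttp, which loads lipid on apolipoprotein B, in 12 at 378 against 5.32, and Fabp1, a fatty acid carrier, in 8 at 147 against 0.101. Osr2 and Prdm1 were in none of the 18. Lct, Fabp6 and Slc10a2, also genes of the small intestine, were in none either, against 0.606, 2.02 and 6.09 CPM in the sample's other cells. The 11 Gata4 cells of the other samples had no Olfm4, Fabp1, Mttp, Alpi or Rbp2 transcript. Without the 18 cells colonic Gata4 was 0.498 CPM instead of 2.51 and colonic Onecut2 0.23 instead of 1.57, with the cecum at 0.142 and 0.703; Osr2 and Prdm1 in the colon moved from 43.9 to 44.0 and from 1.51 to 1.52.

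**Figure D5:**
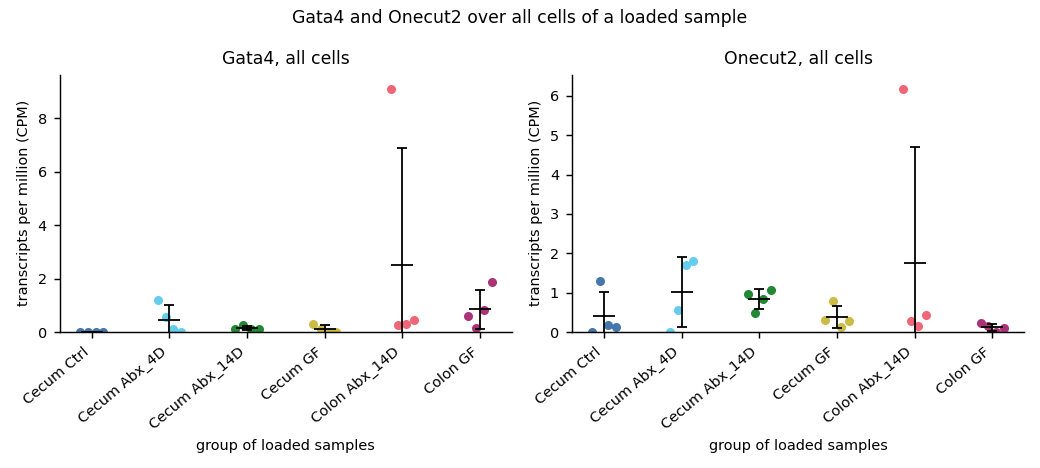
Gata4 (left) and Onecut2 (right) over all cells of a loaded sample, in CPM by group; each point is 1 sample, the long black tick is the mean and the bar is ± 1 SD. 1 colon Abx_14D sample stands at 9.09 for Gata4 and 6.17 for Onecut2, and its group's mean rests on it.

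Of 8 close relatives of the members, Cdx4, Gata2, Gata3, Gata5, Osr1, Onecut1 and Onecut3 passed no filter. The other, Prdm16, averaged 18.6 ± 4.62 CPM over all cells in the cecum and 18.6 ± 4.91 in the colon, and 25.2 ± 6.65 CPM in cecal dividing cells and 4.60 ± 3.09 in cecal absorptive cells, lower in the same direction as Gata6. No Osr1 transcript was found in the 14840 cells. Gata5 averaged 1.22 ± 1.08 CPM over all cells in the cecum and 0.339 ± 0.258 in the colon.

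Genes known to depend on HNF4 in the enterocyte were mostly lower in the colon where called, while Hnf4g was higher. Of 19 listed, 11 were tested in absorptive cells, and in Abx_14D 6 were lower in the colon and 1 higher (median -0.56 against 0.16 for all genes), in GF mice 4 and 1 (median -0.44 against 0.10); of all genes 18.5% and 14.2% were called, in either direction. The lower ones included Apob, the apolipoprotein of chylomicrons (-2.26 ± 0.26 and -2.07 ± 0.25), Fabp2, a fatty acid carrier (-1.97 ± 0.20 and -1.96 ± 0.21), and Espn, which bundles actin in microvilli (-1.54 ± 0.18 and -1.62 ± 0.18). Slc5a1, the glucose cotransporter, was the higher one (1.16 ± 0.21 and 0.73 ± 0.21). In the cecum, where Hnf4g rose in GF mice, 3 of the 11 rose and none fell: Apob (2.88 ± 0.29), Slc5a1 (0.96 ± 0.26) and Fabp2 (0.86 ± 0.27), with a median of 0.43 against 0.11 and 11.2% of all genes called. Apob and Fabp2 were also higher in Abx_4D (1.93 and 1.24) and Abx_14D (2.41 and 1.42), where Hnf4g was not called.

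Genes known to depend on CDX factors were split between tissues. In colonic absorptive cells 3 of 13 tested were higher and 6 lower in Abx_14D (median -0.19 against 0.16), and 2 higher and 3 lower in GF mice (median -0.32 against 0.10), where 18.5% and 14.2% of all genes were called. Abcb1a, an efflux pump (-1.17 ± 0.17 and -0.86 ± 0.17), and Cdh17, liver-intestine cadherin (-1.0 ± 0.17 and -0.65 ± 0.17), were lower in both, and Cftr, the chloride channel, was higher in Abx_14D (1.46 ± 0.34). In dividing cells, where Cdx2 was lower in the colon, 1 of 11 was higher and 2 lower in each condition, against 17.2% and 9.89% of all genes called, so the count in Abx_14D is not far above the background, with Abcb1a at -0.97 ± 0.14 and -0.69 ± 0.14 and Mep1a, a brush border protease, at -0.72 ± 0.22 and -1.43 ± 0.22. Across cecal conditions Mep1a alone rose in GF against Ctrl, by 1.74 ± 0.22 in absorptive cells and 1.69 ± 0.28 in dividing cells, at no called change in either CDX gene.

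Of 5 ileal genes that GATA4 keeps low proximally, 3 were tested in cecal absorptive cells, where Gata4 was at 0 to 5.24 CPM in each sample. All 3 were higher in Abx_4D and Abx_14D than in Ctrl and 2 in GF, against 3.16%, 6.62% and 11.2% of all genes called, in comparisons that share the Ctrl samples. Slc10a2, the ileal bile acid importer, was higher by 2.37 ± 0.27, 2.28 ± 0.25 and 2.42 ± 0.26, and Slc51a, a subunit of the basolateral bile acid exporter, by 1.03 ± 0.29, 1.18 ± 0.26 and 1.81 ± 0.27. Both were lower in colonic than in cecal absorptive cells (Slc10a2 by -1.63 ± 0.36 and -1.54 ± 0.36). Of 7 small intestinal genes tied to GATA4, 2 were tested, and Dgat2 was lower in GF cecum (-1.39 ± 0.28). Of 5 genes whose timing PRDM1 sets in the young intestine, 2 were tested and 0 called in GF against Ctrl.

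Among 27 other intestinal transcription factors outside Hox, 24 were tested in absorptive cells, and several differed between the tissues. Nr5a2, a nuclear receptor of crypts, was higher in the colon (2.41 ± 0.20 and 2.26 ± 0.21), and Creb3l3, a membrane-bound factor of lipid metabolism, was lower (-4.35 ± 0.68 and -2.97 ± 0.66). In dividing cells Nr5a2 was higher by 1.68 ± 0.11 and 1.29 ± 0.11. In all, 7 were higher and 2 lower in Abx_14D, and 5 and 3 in GF mice, with medians of 0.24 and 0.22 against 0.16 and 0.10 for all genes, of which 18.5% and 14.2% were called. In GF against Ctrl cecum 3 rose and 2 fell (median 0.01 against 0.11, with 11.2% of all genes called), among them Creb3l3 (2.37 ± 0.55) and Elf3, an epithelial ETS factor (-1.10 ± 0.19). Creb3l3 rose in all 3 cecal groups against Ctrl (2.93 ± 0.56 in Abx_4D and 2.89 ± 0.52 in Abx_14D), which share the Ctrl samples.

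Genes whose levels ran closest to each member over 32 points, 1 for each group and class with at least 50 cells, 20 of them cecal, are given as a description, since the points share libraries and classes. Osr2 ran with Hoxb13 (Pearson r = 0.90), Thbs4 (0.89) and St3gal6 (0.88). Gata6 ran with Lrig1, a crypt marker (0.97), Spata13 and Slain1 (both 0.96). Hnf4g ran with Atxn7 (0.89) and Apbb2 (0.87), and Hnf4a with Elf4 (0.92), Ap1s3 and Cnnm4 (both 0.91). Cdx2 ran with Ces1g (0.93), Daglb and Sh3rf2 (both 0.91), and Cdx1 with Rps6, Rpl15 and Elovl5 (all 0.86).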

How the data were processed

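Counts of transcripts per gene and cell were deposited by the authors as 1 matrix that holds all 8 sublibraries, with a cell table, and per the submitters' processing notes the genome was mm39 and Seurat was used; no source used here names the aligner or counter. The loaded sample of each cell came from the cell table, and 0 columns of per-sample values were left unused. Cells with at least 500 transcripts were gated by the mean of ln(1 + count x 10000 / total) over fixed marker genes. The lower thresholds were tuft 0.8, enteroendocrine 0.4, goblet 1, absorptive 1.2, S or G2 and mitosis 0.6, and stem 1. Cells above 0.6 on the immune list and below the tuft threshold were kept out of these classes. Those cells, 40 in the cecum and 10 in the colon, stayed in the levels and fits of all cells. These thresholds were set after cell counts per class were seen. No doublet caller was run. Counts were summed per loaded sample and class with at least 20 cells and tested with edgeR 4.0.16 (quasi-likelihood, library-size scaling, low-count filter by filterByExpr, Benjamini-Hochberg, threshold 0.05) in R 4.3.3; cecal fits held the 4 cecal groups and tissue fits the 4 groups of Abx_14D and GF. Fits of absorptive against dividing cells held each loaded sample as a block; their tissue and GF differences, and the fits of all cells, were added after the data were seen. Absorptive fits of the cecum dropped Ctrl sample 1 and Abx_4D sample 2 (11 cells each). Sums were made with Python 3.11.15, pandas 2.3.3 and scipy 1.17.1. The fit was tested on simulated data. The named genes were all 9 members, the listed genes that passed a comparison's test with the largest change, up to 6 a list, the family relatives and the 3 genes that run closest to each member with a mean of at least 5 CPM; some genes that this rule would name are not reported here. The members and lists were chosen with earlier results of these data known, and support nothing by their choice. Numbers were read as possible pairs where every same-numbered pair of samples correlated above 0.1 in its deviations from the group mean. These were cecum Ctrl with cecum Abx_14D (0.38 to 0.44, unlike numbers up to 0.53) and cecum with colon Abx_14D (0.24 to 0.45, up to 0.42). The others were cecum with colon GF (0.12 to 0.49, up to 0.35) and cecum Abx_4D with colon Abx_14D (0.14 to 0.37, up to 0.16). In each of these, unlike numbers reached into the range of same numbers, so the rule does not establish pairs. The labels state no pairing, and the main fits did not use the numbers. Only the replicate block did. Alternatives were TMM and DESeq2 1.42.0 scaling, no low-count filter, at least 2000 transcripts per cell, stricter gates (1.5 times the thresholds), at least 40 cells, a replicate block, and leaving out each sample, sublibrary and the samples over 0.5% mitochondrial transcripts. Median depth was 14247.5 transcripts per cell, and 462 well combinations occurred in more than 1 sublibrary and were kept as separate cells.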

Additional observations from a re-analysis of the deposited data

Results flagged for a closer look

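Of 130 groups of 4 samples, 12 had a sample farther from its nearest neighbour than 0.829 of the group's range; chance gives about 1 in 20 such groups. Colon Abx_14D sample 1 stood apart for Gata4 over all cells (9.09 CPM against 0.274 to 0.435 in the others) and in dividing cells (16.6 against 0 to 1.2), and for Onecut2 over all cells (6.17 against 0.151 to 0.435) and in dividing cells (13.3 against 0 to 0.601). Gata4 was also apart in absorptive cells of cecum Abx_4D sample 1 (5.24 against 0 to 0.629), which is 2 transcripts.

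Hnf4g was apart in absorptive cells of cecum GF sample 4 (627 against 405 to 438). Over all cells Gata6 was high in cecum Abx_4D sample 1 (134 against 107 to 109) and cecum GF sample 1 (150 against 100 to 107), Hnf4a in cecum Abx_14D sample 3 (577 against 470 to 474) and Cdx1 in colon GF sample 4 (201 against 186 to 188). Osr2 was low over all cells in cecum Ctrl sample 4 (8.28 against 12.8 to 13.6), and Cdx1 was low in absorptive cells of colon Abx_14D sample 2 (154 against 200 to 208). The step from dividing to absorptive cells differed between colon and cecum for Hnf4g (1.01 ± 0.12, adjusted p = 1.3e-06) and Prdm1 (-2.85 ± 0.87, adjusted p = 0.022). Prdm1 passed the low-count filter only through cecal absorptive cells and has few transcripts in the other classes, so its value is a description.

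Colon Abx_4D sample 1 entered no comparison. Its 857 cells with 7086989 transcripts held Osr2 at 41.2 CPM, Cdx2 at 110, Prdm1 at 2.54 and Onecut2 at 0.706, where 3 transcripts would be 0.423.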

How the results depend on the processing

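Of 1240 alternatives to the 40 called changes of single members, 1122 kept the call and direction, 116 kept the direction and lost the call, and 2 reversed, both for Cdx2 in absorptive against dividing cells of the cecum (0.33 with TMM and 0.23 with DESeq2, against -0.18). Called members in the tissue comparison of absorptive cells went from 4 to 2 in Abx_14D and from 2 to 1 in GF, both with stricter gates and with at least 40 cells; 40 cells leaves 1 colonic sample in Abx_14D and 2 in GF, and a lone sample is assumed to vary like the others. With no low-count filter the count went from 2 to 5 in dividing cells in Abx_14D, and from 5 to 8 for absorptive against dividing cells in the colon. It went from 0 to 2 for colon GF against Abx_14D in dividing cells. These gains came through Gata4, Onecut2 and Prdm1, which the filter removes there. For cecum GF against Abx_14D in absorptive cells the count went from 0 to 1, through Prdm1. That gene passes the filter there, and edgeR without the filter gave -1.57 (adjusted p = 0.00065). The tissue difference in the class step went from 2 members to 1 with stricter gates, with at least 40 cells and without samples over 0.5% mitochondrial transcripts, and the class difference in the GF response from 0 to 1 with stricter gates. Without the samples over 0.5% mitochondrial transcripts GF against Ctrl in absorptive cells called 1 member in place of 2. The replicate block called 2 members in place of 1 for the tissue comparison in GF dividing cells, by adding Cdx2, and changed no count by over 1.5 times in the other absorptive and dividing comparisons. In goblet cells it called Hnf4g in GF against Ctrl (1.25, adjusted p = 0.018), whose numbers did not meet the rule for possible pairs. Leaving out 1 sample or sublibrary at a time gave 3 to 5 members for the tissue comparison of absorptive cells in Abx_14D and 1 to 3 in GF, 2 to 3 and 1 to 2 in dividing cells, 0 to 2 for GF against Ctrl in absorptive cells, 0 to 1 for Abx_14D against Ctrl and for GF against Abx_14D in absorptive cells, 4 to 5 and 5 to 5 for the class step in cecum and colon, 1 to 3 for its tissue difference and 0 to 1 for its GF difference. Of 36 shares of cells, 25 moved without thinning. Member levels in absorptive and dividing cells were also taken as the mean over cells of each cell's CPM. Of 108 such levels, 21 moved by more than the SD over samples. Of 1515 alternative counts of called members, 119 moved by over 1.5 times or to or from 0. Depth limits Prdm1, Gata4 and Onecut2, for which most samples hold a few transcripts per class.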
